A study of Homo sapiens with 12 samples.

Results

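The genes described here build cholesterol and fatty acids or control that work, and they were measured by RNA-seq in IMR90, normal diploid fibroblasts grown from human lung. The set held 34 genes out of 48162 Ensembl gene IDs in each of 12 libraries, and all 34 had an ID. They were picked by their place in the pathway, with earlier results of these data known. Of these, 18 encode enzymes of cholesterol synthesis, 8 encode enzymes that make, desaturate or elongate fatty acids or pass them into glycerolipid, and 8 regulate or transport sterols. Messenger RNA was sequenced in 4 groups of 3 libraries. The control received the empty retroviral vector (pBABE-Control). RAS received pBABE-HRASG12V, a mutant HRAS oncogene that drives these fibroblasts into senescence. RAS/shDOT1L received that vector together with pLKO.1-shDOT1L, a lentiviral hairpin RNA against the H3K79 methyltransferase DOT1L. DOT1L OE received MSCB-hDot1lwt, which expresses human DOT1L without the oncogene. The labels name 1 hairpin, TRCN0000020209, and give none to the RAS libraries. The study's methods and legends name an shGFP control hairpin, so it is not clear whether the RAS libraries carried it. If they did not, loss of DOT1L and the added lentiviral hairpin cannot be told apart in RAS/shDOT1L against RAS. All cells grew in 2% oxygen. Per the labels they were selected for 4 days, in 3 µg/mL puromycin for the control, RAS and RAS/shDOT1L and in 1 µg/mL blasticidin for DOT1L OE, so the drug and the DOT1L vector cannot be told apart. The study's methods give a lower puromycin dose and a longer selection for the pBABE vectors, so the sources differ for the control and RAS.

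Cells make cholesterol from acetyl-CoA through mevalonate, farnesyl diphosphate, squalene and lanosterol. Transcription of these enzymes is driven by the SREBP factors (genes SREBF1 and SREBF2), which SCAP escorts out of the endoplasmic reticulum when membrane sterol is low and which INSIG proteins hold back when it is high. SREBP1 is best known for the fatty acid branch and SREBP2 for the cholesterol branch, while the oxysterol receptor LXR raises genes of sterol export.

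The targeted genes were checked first. DOT1L stood at 31.7 ± 2.33 counts per 1000000 (CPM; SD, n = 3) in the control and 84.5 ± 3.42 in RAS. It was at 10.99 ± 0.645 CPM with the hairpin and at 202 ± 9.19 CPM with the DOT1L vector. HRAS stood at 85.995 ± 2.82, 503 ± 10.01, 276 ± 13.01 and 79.4 ± 5.46 CPM in the same order, and the RAS/shDOT1L libraries thus held less HRAS mRNA than the RAS libraries (log2 fold change -0.85 ± 0.047, adjusted p = 5.07e-19, and -0.37 with the GC offset explained below). The sources differ on whether the 3 libraries of a group are biological or technical replicates, so the p-values rest on a spread between libraries that may be technical alone. Library totals ran from 16128055 to 19503457 counts. The 8 fibroblast markers summed to between 14631 and 19655 CPM in every library, and 1 of the 8 was called higher and 6 lower in RAS against control, 2 and 4 in RAS/shDOT1L against RAS, 1 and 6 in DOT1L OE and 1 and 6 in RAS/shDOT1L, each against control, with COL1A1 at 7785 to 9999 CPM by group. Of all genes tested, the shares called higher and lower were, in that order, 31.9% and 32.0%, 26.3% and 26.4%, 29.9% and 30.0%, and 27.9% and 27.5%. Summed over their lists, 5 epithelial markers came to 2.89 to 9.67 CPM in a library (SFTPC had no count anywhere, and CLDN4 held most), 5 immune markers to 0.565 to 3.51 (ITGAM had no count) and 5 adipocyte markers to 0 to 0.809 (ADIPOQ and LEP had no count). The 3 endothelial markers with an ID summed to 23.2 to 136 CPM. Nearly all of that was TEK, at 67.1, 61.1, 23.5 and 129 CPM by group in the order above, while VWF stayed at or below 1.26 CPM by group and CDH5 was at 0 in 3 groups. The part of these shifts in the results below was not tested. A further measured fact touches most of the values below: the log2 fold change of a gene moved with the GC content of its transcript. Genes were put in 10 bins of GC content. From the lowest to the highest bin, the median log2 fold change went from -0.62 to 0.58 in RAS against control, from 0.39 to -0.43 in RAS/shDOT1L against RAS, from -0.20 to 0.13 in DOT1L OE against control and from -0.25 to 0.18 in RAS/shDOT1L against control. A second fit therefore carried a GC offset, and its log2 fold change stands beside each printed value of a member that gained or lost its call there, or that was called and turned or moved by over 1.5 times.

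The upstream sequences of some members are shown because the regulators named above act through short motifs there. RefSeq windows on GRCh38.p14 matched 30 of the 34 members, and the 250 bases before each gene start were searched on both strands for the sterol regulatory element TCACNCCAC, the E-box TCACGTGA, the CCAAT box and the GC box GGGCGG. The CCAAT box stood in 12 of the 15 cholesterol synthesis members with a window, in 3 of 7 fatty acid members, in 4 of 8 regulators and in 32.0% of 35116 windows of that length. The GC box stood in 28 of the 30 (93.3%) and in 42.6% of all windows. The set of all windows was not filtered by gene type or expression. The part of this in the differences from the members was not tested. The exact letters of the sterol regulatory element were found in SREBF2 alone of the 30 (0.883% of all windows). Those of the E-box were found in INSIG1 alone (0.854%). Elements that differ from these letters or lie outside the 250 bases were not searched. A gene without a match may therefore still hold such an element. No window was matched for ACAT2, FDFT1, SQLE and FASN. In the sequences below, written 5′ to 3′ on the strand of the gene, capitals mark the sterol regulatory element, the E-box and the CCAAT box, with ATTGG being CCAAT read on the other strand, and GC boxes stay in lower case. MSMO1 is shown as the member with the largest difference between groups, HMGCS1 as an early step with an inverted CCAAT box, SREBF2 for its sterol regulatory element and INSIG1, as 28 bases, for its E-box, which lies inside the first exon of the gene's GENCODE model. The other stretches end before the GENCODE start of the gene.
MSMO1, chr4:165327507-165327666, plus strand: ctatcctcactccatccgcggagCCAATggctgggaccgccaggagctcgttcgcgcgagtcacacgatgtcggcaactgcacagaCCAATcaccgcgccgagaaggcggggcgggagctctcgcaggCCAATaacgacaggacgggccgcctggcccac
HMGCS1, chr5:43313513-43313662, minus strand: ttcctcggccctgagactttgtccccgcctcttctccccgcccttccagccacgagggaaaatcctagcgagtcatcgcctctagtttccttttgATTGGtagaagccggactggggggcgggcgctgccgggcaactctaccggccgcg
SREBF2, chr22:41832945-41833104, plus strand: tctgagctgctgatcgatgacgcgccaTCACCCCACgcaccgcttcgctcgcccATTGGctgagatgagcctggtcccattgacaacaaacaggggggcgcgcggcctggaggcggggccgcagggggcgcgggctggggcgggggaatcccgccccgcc
INSIG1, chr7:155297812-155297839, plus strand: ccgggcaggcTCACGTGAtgcgggcccc
MSMO1 held 3 CCAAT boxes within the printed stretch. A match of letters is a description and was not tested as a binding site.

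Across the cholesterol branch, RAS/shDOT1L had the highest levels and DOT1L OE most often the lowest. Group means in CPM were highest in RAS/shDOT1L for 15 of the 18 enzymes, and for 13 of them every RAS/shDOT1L library lay above the other 9, a pattern met by 11.0% of the 12646 genes with a mean of at least 1 CPM and a count in 3 or more libraries. Means were lowest in DOT1L OE for 10 of the 18 and in RAS for 6. For 8 enzymes every DOT1L OE library lay below the other 9, as did 14.9% of genes. In bulk RNA, fewer cells that express a gene and less mRNA per cell cannot be told apart.

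All 34 members passed the filter on low counts in each comparison and were tested with all other genes, with calls at an adjusted p under 0.05. In RAS against control, 31.9% of the 13554 genes tested were called higher and 32.0% lower, and the cholesterol enzymes had 2 higher and 11 lower of 18, with a median log2 fold change of -0.54 against -0.043 over all genes. For RAS/shDOT1L against RAS, where 26.3% of 13398 genes were higher and 26.4% lower, 15 of the 18 rose and 0 fell by edgeR (0 also at an unadjusted p under 0.05 and by DESeq2, which called 21.0% of genes lower), and the median was 1.13 against 0.028. DOT1L OE against control called 29.9% of 13660 genes higher and 30.0% lower, and among the enzymes 0 rose by edgeR (0 also at an unadjusted p under 0.05 and by DESeq2, which called 22.9% of genes higher) and 12 fell, with a median of -0.75 against 0.0060. In RAS/shDOT1L against control, with 27.9% of 13519 genes higher and 27.5% lower, 14 rose and 1 fell, with a median of 0.80 against -0.0093. With the GC offset 1 was higher and 11 lower in RAS against control (25.3% and 28.8% of all genes), and 16 and 0 in RAS/shDOT1L against RAS (26.5% and 20.4%). That fit gave 0 and 12 in DOT1L OE (30.7% and 28.8%) and 12 and 2 in RAS/shDOT1L against control (27.9% and 26.9%). The 11 lower in RAS against control were not the same genes in both fits. With the offset HMGCS1, IDI1 and HSD17B7 lost that call, and MVD, LSS and DHCR7 gained it. There MVK, PMVK, ACAT2, SQLE, MSMO1, EBP and SC5D were called lower in every alternative. When libraries were scaled to their totals alone, the median over all genes moved from -0.043 to -0.24 in RAS against control and from -0.0093 to -0.13 in RAS/shDOT1L against control, and the genes called higher and lower there went from 4325 and 4343 to 3262 and 5573 and from 3768 and 3712 to 3036 and 4565. The comparisons with the control share its libraries, and RAS libraries enter the first and the second, so they are not independent of each other. The RAS/shDOT1L and RAS libraries also differed in HRAS mRNA (above) and in the share of counts from mitochondrial genes, which ran from 3.64% to 3.87% in RAS and from 2.12% to 2.54% in the other libraries, and the part of either in these differences was not tested.

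**Figure D1:**
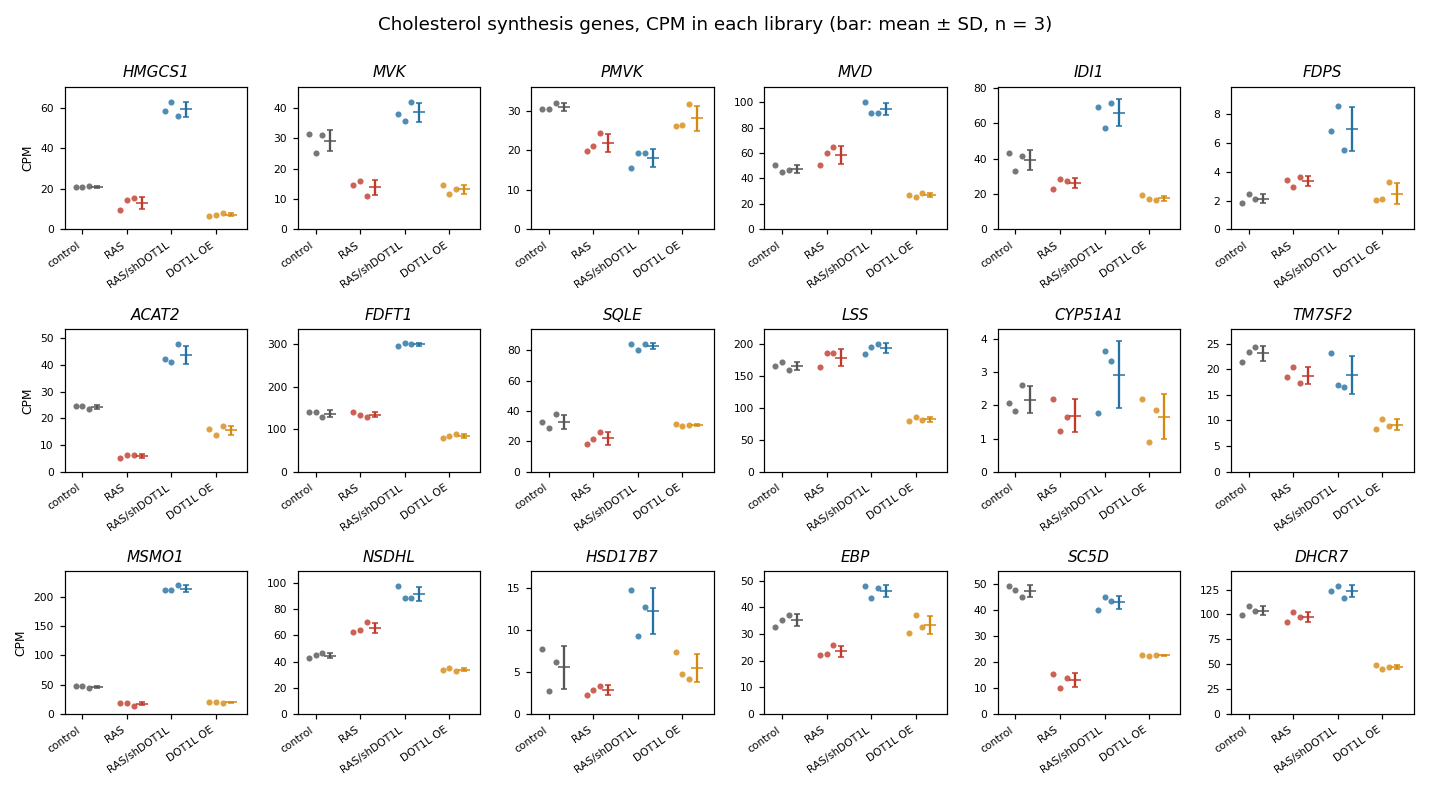
CPM of the 18 cholesterol synthesis genes, 1 panel a gene, with the 4 groups on the x axis, a point for each library and a bar for the mean ± SD (n = 3); each y axis starts at 0 and has its own scale. RAS/shDOT1L has the highest mean in 15 panels, and DOT1L OE the lowest in 10.

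The first enzymes of the pathway carry acetyl-CoA to mevalonate and activate it. ACAT2, the cytosolic thiolase that joins acetyl units into acetoacetyl-CoA, stood at 24.6, 24.6 and 23.3 CPM in the control and 4.95, 6.42 and 6.32 in RAS. In RAS/shDOT1L ACAT2 was at 42.3, 41.1 and 47.7 CPM, and the DOT1L OE libraries held 15.95, 13.6 and 16.9. No group overlapped another for this gene, with RAS lowest and RAS/shDOT1L highest. It fell in RAS against control (log2 fold change -2.04 ± 0.16, adjusted p = 7.81e-14) and was 7.50-fold higher in RAS/shDOT1L than in RAS (2.91 ± 0.15, adjusted p = 4.93e-20). HMGCS1, the synthase that makes HMG-CoA, read 20.8, 21.03 and 21.6 CPM in the control and 9.84, 14.4 and 15.5 in RAS. In RAS/shDOT1L HMGCS1 was at 58.5, 63.1 and 55.998 CPM, and the DOT1L OE libraries held 6.51, 7.24 and 8.29. Its RAS/shDOT1L libraries were all far above the rest, and its DOT1L OE libraries were all below the rest. HMGCS1 rose 4.53-fold from RAS to RAS/shDOT1L (2.18 ± 0.13, adjusted p = 8.3e-18) and fell 2.86-fold in DOT1L OE (-1.52 ± 0.14, adjusted p = 1.45e-12). Its lower level in RAS than in the control (-0.68 ± 0.15, adjusted p = 0.00021) lost the call with the GC offset (-0.24, adjusted p = 0.196). ACAT2 shares 454 exon bases with TCP1 on the opposite strand, a gene with a mean of 4061 counts a library, and its reads could not be told from those of TCP1 there if strand was not used in counting.

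MVK, PMVK and MVD then phosphorylate and decarboxylate mevalonate. MVK, mevalonate kinase, had 31.2, 25.1 and 31.03 CPM in the control and 14.5, 15.8 and 11.1 in RAS. In RAS/shDOT1L MVK was at 37.8, 35.7 and 41.7 CPM, and the DOT1L OE libraries held 14.7, 11.5 and 13.2. RAS and DOT1L OE lay apart below the control, and RAS/shDOT1L apart above it. MVK fell in RAS (-1.08 ± 0.14, adjusted p = 1.82e-08) and in DOT1L OE (-1.15 ± 0.12, adjusted p = 7.1e-11), and it rose from RAS to RAS/shDOT1L (1.49 ± 0.14, adjusted p = 3.51e-12). MVD, the decarboxylase, stood at 47.5 ± 2.91 CPM in the control and 58.4 ± 7.11 in RAS. In RAS/shDOT1L MVD was at 94.4 ± 4.86 CPM, and the DOT1L OE libraries held 26.9 ± 1.48. Its RAS/shDOT1L and DOT1L OE changes kept their calls in every alternative, whereas the small difference between RAS and control (0.29 ± 0.088, adjusted p = 0.00387) turned to -0.35 with the GC offset (adjusted p = 0.00132) and lost the call when libraries were scaled to their totals alone (0.096, adjusted p = 0.347) or RAS replicate 3 was left out (0.22, adjusted p = 0.0529). PMVK, phosphomevalonate kinase, was lowest in RAS/shDOT1L, and its libraries read 30.4, 30.5 and 32.04 CPM in the control, 19.9, 21.2 and 24.5 in RAS and 15.5, 19.4 and 19.4 in RAS/shDOT1L. It fell in RAS (-0.51 ± 0.12, adjusted p = 0.000289, and -1.01 with the GC offset), did not pass the test between RAS/shDOT1L and RAS (-0.25 ± 0.15, adjusted p = 0.156) and was the 1 enzyme called lower in RAS/shDOT1L than in the control (-0.77 ± 0.13, adjusted p = 4.17e-06).

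IDI1, the isomerase of the isoprenoid units, had 39.4 ± 5.60 CPM in the control and 26.4 ± 2.91 in RAS. In RAS/shDOT1L IDI1 was at 66.1 ± 7.63 CPM, and the DOT1L OE libraries held 17.7 ± 1.37, and no group overlapped another. It rose 2.54-fold from RAS to RAS/shDOT1L and fell 2.22-fold in DOT1L OE, and its call in RAS against control (-0.58 ± 0.11, adjusted p = 3.06e-05) was lost with the GC offset (-0.22, adjusted p = 0.108). FDFT1, squalene synthase, which commits farnesyl diphosphate to sterols, read 140.5, 141 and 128 CPM in the control and 139.9, 134 and 129 in RAS. In RAS/shDOT1L FDFT1 was at 296, 303 and 300.2 CPM, and the DOT1L OE libraries held 79.9, 83.5 and 89.1. Control and RAS overlapped and did not pass the test (-0.025 ± 0.057, adjusted p = 0.716), while RAS/shDOT1L lay apart above and DOT1L OE apart below. FDFT1 rose 2.26-fold in RAS/shDOT1L against RAS (1.18 ± 0.054, adjusted p = 8.1e-22). FDPS, which makes farnesyl diphosphate, had the second lowest level of the branch per kilobase of exon, with 0.578 CPM per kilobase in the control against 26.9 for FDFT1. The annotation lists 8 FDPS pseudogenes, whose part in its counts was not tested, and FDPS held 64.2 counts a library on average. It stood at 6.85, 8.60 and 5.49 CPM in RAS/shDOT1L against 3.46, 2.97 and 3.64 in RAS (1.07 ± 0.29, adjusted p = 0.00172) and did not pass the test in the comparisons of RAS or DOT1L OE with the control.

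Squalene epoxidase and lanosterol synthase, SQLE and LSS, oxidize squalene and close the sterol ring. SQLE read 32.995, 28.5 and 37.7 CPM in the control and 17.9, 21.7 and 26.2 in RAS. In RAS/shDOT1L SQLE was at 83.9, 80.4 and 84.3 CPM, and the DOT1L OE libraries held 31.7, 29.95 and 30.6. RAS lay below the control (-0.59 ± 0.13, adjusted p = 0.000124) and RAS/shDOT1L above all other libraries, 3.83-fold over RAS (1.94 ± 0.11, adjusted p = 5.43e-19). DOT1L OE overlapped the control and did not pass the test (-0.10 ± 0.099, adjusted p = 0.389). LSS read 165, 171 and 160.04 CPM in the control and 163, 186 and 186 in RAS. In RAS/shDOT1L LSS was at 185, 196 and 199.9 CPM, and the DOT1L OE libraries held 79.2, 86.4 and 80.7. The DOT1L OE libraries stood clear of all others, 2.01-fold below the control (-1.01 ± 0.056, adjusted p = 4.3e-19). The small LSS difference between RAS/shDOT1L and RAS (0.14 ± 0.058, adjusted p = 0.0472) lost its call in 4 settings (DESeq2 size factors, no filter beyond 1 count, 1 fit over the 4 groups, the DESeq2 Wald test) and in 4 of the 6 fits that left out a library, and was 0.47 with the GC offset (adjusted p = 4.59e-09). The offset also made LSS lower in RAS than in the control (-0.37, adjusted p = 2.29e-07, from 0.11 ± 0.054, adjusted p = 0.0746) and ended its call in RAS/shDOT1L against control (0.23 ± 0.053, adjusted p = 0.000412, to 0.094, adjusted p = 0.141).

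The sterol carbon skeleton is then demethylated and rearranged, and here lay the largest log2 fold change among the members in the 4 comparisons. MSMO1, the oxidase of the demethylation at carbon 4, read 47.5, 46.97 and 43.8 CPM in the control and 19.2, 19.5 and 14.2 in RAS. In RAS/shDOT1L MSMO1 was at 211, 211 and 220.1 CPM, and the DOT1L OE libraries held 19.6, 20.05 and 18.96. The RAS and DOT1L OE libraries overlapped each other well below the control, and RAS/shDOT1L stood far above every other library. MSMO1 was 12.3-fold higher in RAS/shDOT1L than in RAS (3.62 ± 0.085, adjusted p = 4.71e-31), 4.66-fold higher than in the control (2.22 ± 0.062, adjusted p = 7.43e-24), and fell in RAS (-1.38 ± 0.12, adjusted p = 3.42e-13, and -0.85 with the GC offset) and in DOT1L OE (-1.23 ± 0.093, adjusted p = 6.7e-15). NSDHL, the dehydrogenase of the same demethylation complex, had 42.6, 44.8 and 46.6 CPM in the control and 62.3, 64.6 and 70.1 in RAS. In RAS/shDOT1L NSDHL was at 97.9, 88.5 and 88.6 CPM, and the DOT1L OE libraries held 33.9, 34.8 and 33.1. It differed from MSMO1 in that RAS lay above the control (0.55 ± 0.081, adjusted p = 2e-07), and NSDHL was the 1 cholesterol enzyme whose higher level in RAS was called in every alternative. HSD17B7, the ketoreductase of that complex, stood at 7.69, 2.70 and 6.24 CPM in the control and 2.27, 2.91 and 3.38 in RAS. In RAS/shDOT1L HSD17B7 was at 14.7, 9.29 and 12.8 CPM, and the DOT1L OE libraries held 7.36, 4.81 and 4.21. Its RAS/shDOT1L libraries stood above the rest (2.12 ± 0.26, adjusted p = 2.87e-09 against RAS), its RAS and control libraries overlapped, and the lower level in RAS (-0.96 ± 0.32, adjusted p = 0.00972) lost the call without control replicate 1 (log2 fold change -0.65, adjusted p = 0.145) or control replicate 3 (-0.87, adjusted p = 0.0542) and with the GC offset (-0.61, adjusted p = 0.113). The count of HSD17B7 is uncertain, since the annotation holds a near copy, HSD17B7P2.

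EBP and SC5D move and set the unsaturation of the ring, and DHCR7 makes cholesterol in the last reduction. SC5D, the sterol desaturase, read 49.2, 47.8 and 44.9 CPM in the control and 15.4, 9.88 and 13.9 in RAS. In RAS/shDOT1L SC5D was at 40.1, 45.1 and 43.5 CPM, and the DOT1L OE libraries held 22.7, 22.3 and 22.5. It fell 3.63-fold in RAS (-1.86 ± 0.13, adjusted p = 9.81e-16) and 2.10-fold in DOT1L OE (-1.07 ± 0.090, adjusted p = 1.73e-13), and RAS/shDOT1L overlapped the control without passing the test (-0.13 ± 0.092, adjusted p = 0.219). From RAS to RAS/shDOT1L it rose 3.33-fold (1.74 ± 0.14, adjusted p = 7.43e-14). EBP, the isomerase, which shares 36.4% of its exon bases with a GENCODE 44 model on the same strand that has no ID in the files, had means of 35.1 ± 2.23, 23.5 ± 2.03, 46.2 ± 2.29 and 33.4 ± 3.39 CPM in the order control, RAS, RAS/shDOT1L and DOT1L OE, fell in RAS (-0.58 ± 0.11, adjusted p = 2.11e-05, and -0.93 with the GC offset) and rose 1.996-fold from RAS to RAS/shDOT1L (1.00 ± 0.11, adjusted p = 6.58e-10). DHCR7 had means of 104 ± 4.56, 97.2 ± 4.83, 123 ± 5.97 and 47.1 ± 1.68 CPM in that order, with its largest change in DOT1L OE (-1.14 ± 0.066, adjusted p = 1.77e-18). In RAS against control DHCR7 did not pass the test (-0.096 ± 0.063, adjusted p = 0.182) but was called lower with the GC offset (-0.58, adjusted p = 5.72e-10), and its call in RAS/shDOT1L against control (0.25 ± 0.063, adjusted p = 0.0011) was lost there (0.11, adjusted p = 0.129). TM7SF2, a sterol reductase that acts early after lanosterol, fell 2.51-fold in DOT1L OE (-1.33 ± 0.13, adjusted p = 1.25e-11), from 21.5, 23.4 and 24.3 CPM to 8.32, 10.3 and 8.85. Between RAS and control, the TM7SF2 call (-0.30 ± 0.13, adjusted p = 0.0445) was lost in 4 of 6 fits without a library and under 5 other settings, and with the GC offset the gene was lower by more (-0.95, adjusted p = 1.13e-07). That fit also called TM7SF2 higher in RAS/shDOT1L than in RAS (0.54, adjusted p = 0.00413) and lower than in the control (-0.44, adjusted p = 0.00929), where the fit without it gave no call (0.030 and -0.28, adjusted p = 0.892 and 0.0934). CYP51A1, the lanosterol demethylase, was called in none of the comparisons by edgeR, with an unadjusted p of at least 0.0884 in each. It held 37.2 counts a library on average. A pair of GENCODE 44 models on the same strand, without IDs in the files, cover 68.2% and 67.8% of its exons, and their part in this low count was not tested.

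**Figure D2:**
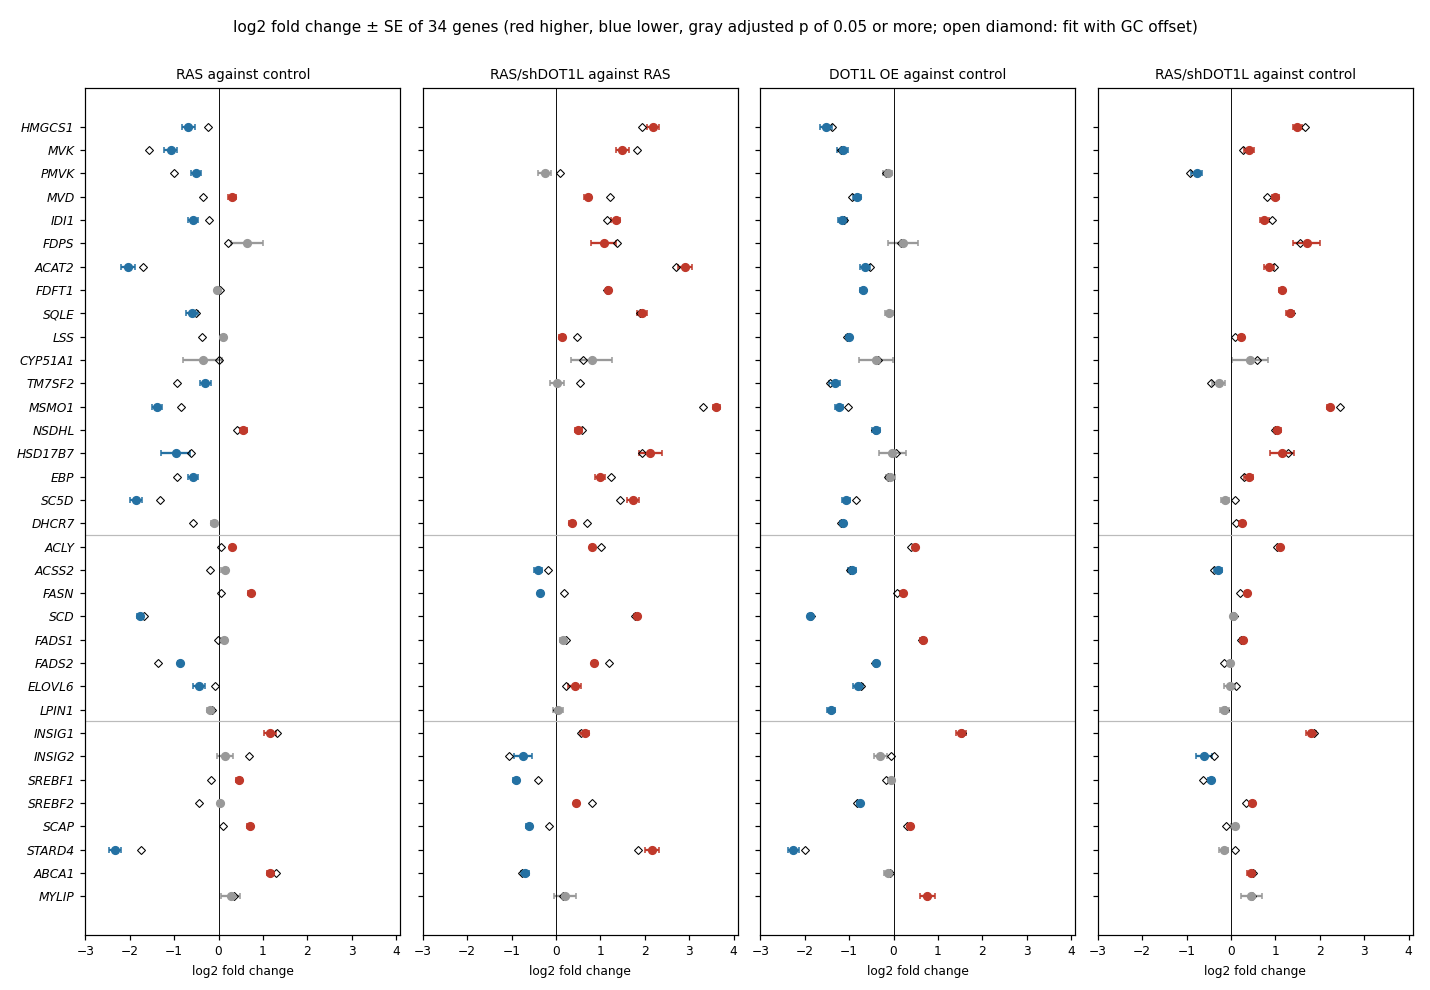
log2 fold change ± SE (x axis) of the 34 genes (y axis: cholesterol synthesis, fatty acid synthesis, regulation and transport from top to bottom) in the 4 comparisons, with red points called higher, blue called lower, gray not called, and open diamonds for the fit with the GC offset. Among the 18 cholesterol enzymes, 15 points are red in RAS/shDOT1L against RAS and 12 are blue in DOT1L OE against control.

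The fatty acid branch had calls in both directions in each comparison. In RAS against control 2 of its 8 genes were called higher and 3 lower, beside 31.9% and 32.0% of all genes, and for RAS/shDOT1L against RAS 4 and 2, beside 26.3% and 26.4%. DOT1L OE against control had 3 and 5 (29.9% and 30.0% of all genes), and RAS/shDOT1L against control 3 and 1 (27.9% and 27.5%). Its median log2 fold changes in that order were -0.029, 0.29, -0.59 and 0.016. The GC offset left 0 higher and 2 lower, 5 and 0, 2 and 5, and 3 and 2, and the shares of all genes in that fit are those given for the cholesterol enzymes.

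SCD, the desaturase that makes oleate and other monounsaturated fatty acids, read 153, 156 and 158 CPM in the control and 45.9, 45.9 and 45.5 in RAS. In RAS/shDOT1L SCD was at 155, 168 and 158 CPM, and the DOT1L OE libraries held 44.1, 39.7 and 43.3. RAS and DOT1L OE lay far below the control, whereas RAS/shDOT1L overlapped it. SCD fell 3.40-fold in RAS (-1.76 ± 0.063, adjusted p = 2.18e-24) and 3.66-fold in DOT1L OE (-1.87 ± 0.062, adjusted p = 1.07e-26), rose 3.55-fold from RAS to RAS/shDOT1L (1.83 ± 0.071, adjusted p = 2.96e-24) and did not pass the test between RAS/shDOT1L and control (0.050 ± 0.055, adjusted p = 0.458). FADS2, a desaturase of polyunsaturated fatty acids, had 282, 299 and 274 CPM in the control and 146, 157 and 165 in RAS. In RAS/shDOT1L FADS2 was at 289.99, 275 and 276 CPM, and the DOT1L OE libraries held 218, 221 and 212. RAS lay lowest and apart (-0.87 ± 0.050, adjusted p = 5.28e-18, and -1.36 with the GC offset), DOT1L OE lay apart between RAS and the control (-0.39 ± 0.047, adjusted p = 1.93e-09), and RAS/shDOT1L overlapped the control (-0.018 ± 0.048, adjusted p = 0.771, and called lower with the GC offset at -0.15, adjusted p = 0.00785). FADS1, the partner desaturase encoded beside it, read 81.2, 79.1 and 75.7 CPM in the control and 128, 125 and 119.6 in DOT1L OE, and rose there (0.66 ± 0.058, adjusted p = 5.65e-13) while FADS2 fell. In RAS the FADS1 libraries read 87.4, 82.3 and 87.3 CPM, above the control libraries without passing the test (0.12 ± 0.067, adjusted p = 0.11). Between RAS/shDOT1L and RAS it was called with the GC offset (0.22, adjusted p = 0.0103) and not without it (0.16 ± 0.071, adjusted p = 0.0622). FADS1 and FADS2 share 490 exon bases on opposite strands.

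ACLY, which makes cytosolic acetyl-CoA from citrate, was the highest of the fatty acid genes, with 58.4 CPM per kilobase of exon in the control against 29.6 for SCD and 18.2 for FASN. Its libraries read 294, 305 and 312 CPM in the control and 382, 378 and 369 in RAS. In RAS/shDOT1L ACLY was at 622, 660.4 and 663 CPM, and the DOT1L OE libraries held 423, 434 and 407, and the groups were all apart. ACLY rose in RAS/shDOT1L against RAS (0.80 ± 0.044, adjusted p = 4.31e-19) and in DOT1L OE against control (0.47 ± 0.044, adjusted p = 1.8e-12), while its call in RAS against control (0.31 ± 0.040, adjusted p = 2.34e-08) was lost with the GC offset (0.047, adjusted p = 0.328). FASN, fatty acid synthase, read 159, 173 and 177 CPM in the control and 276, 284 and 279.7 in RAS. In RAS/shDOT1L FASN was at 209, 225 and 217 CPM, and the DOT1L OE libraries held 199, 204 and 185. RAS was highest and the control lowest, but FASN has the highest GC content of the members, at 65.3%, and the changes given next moved with the offset. The log2 fold change in RAS went from 0.72 (adjusted p = 3.61e-16) to 0.055 (adjusted p = 0.337), and that of RAS/shDOT1L against RAS from -0.35 (adjusted p = 1.88e-07) to 0.18 (adjusted p = 0.00317), a change of direction. In DOT1L OE the FASN call (0.21 ± 0.052, adjusted p = 0.000654) was also lost (0.083, adjusted p = 0.162). In RAS/shDOT1L against control, by contrast, FASN was called higher in every alternative, the GC offset included.

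ACSS2, which makes acetyl-CoA from acetate, had means of 48.8 ± 3.72, 53.7 ± 2.25, 39.9 ± 1.56 and 25.7 ± 1.55 CPM in the control, RAS, RAS/shDOT1L and DOT1L OE. It fell in DOT1L OE (-0.92 ± 0.090, adjusted p = 9.13e-12), and its lower level in RAS/shDOT1L than in RAS (-0.41 ± 0.096, adjusted p = 0.000376) lost the call with the GC offset (-0.19, adjusted p = 0.108). Against the control, RAS/shDOT1L was also lower (-0.29 ± 0.093, adjusted p = 0.0102), a call lost without control replicate 1 (log2 fold change -0.23, adjusted p = 0.0722). ELOVL6, the elongase of saturated and monounsaturated chains, stood at 23.5 ± 0.677, 17.4 ± 1.40, 22.96 ± 0.782 and 13.5 ± 0.797 CPM in the same order. Its fall in DOT1L OE (-0.80 ± 0.12, adjusted p = 1.89e-07) held with the offset, whereas the calls of a lower level in RAS (-0.44 ± 0.13, adjusted p = 0.00361) and of a higher level in RAS/shDOT1L against RAS (0.42 ± 0.14, adjusted p = 0.0131) did not (-0.083 and 0.23, adjusted p = 0.62 and 0.191), and the latter was also lost without RAS replicate 1 (log2 fold change 0.37, adjusted p = 0.0531). LPIN1, the phosphatidate phosphatase of triglyceride synthesis, changed in DOT1L OE, from 49.1, 53.4 and 46.9 CPM in the control to 20.3, 18.3 and 17.6 (-1.41 ± 0.095, adjusted p = 1.83e-16). It read 45.6, 42.004 and 44.3 CPM in RAS and 36.9, 47.9 and 49.3 in RAS/shDOT1L, which did not pass the test against the control (adjusted p = 0.0702 and 0.214).

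**Figure D3:**
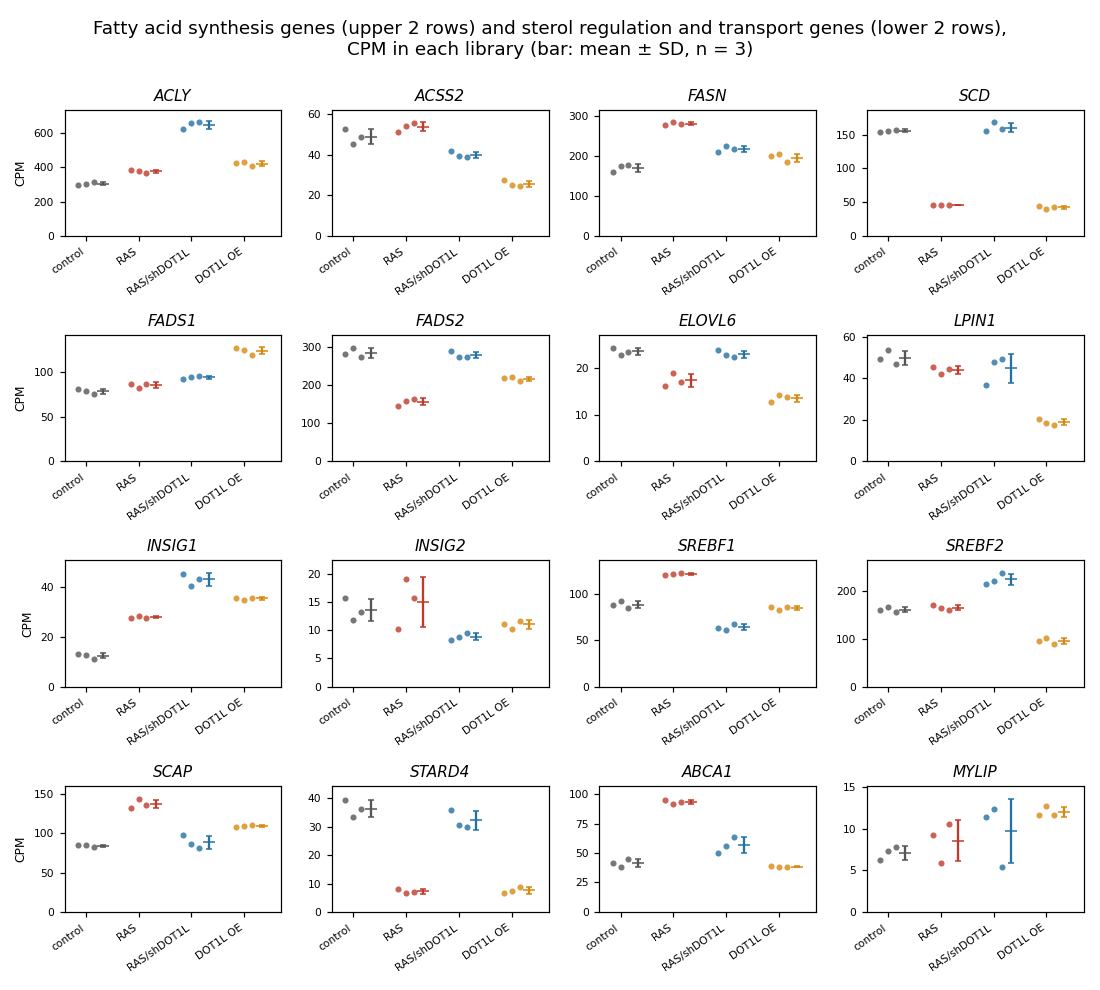
CPM of the 8 fatty acid synthesis genes and the 8 genes of sterol regulation and transport, 1 panel a gene, with the 4 groups on the x axis, a point for each library and a bar for the mean ± SD (n = 3); each y axis starts at 0 and has its own scale. SCD and STARD4 are low in RAS and DOT1L OE alike, and INSIG1 is lowest in the control.

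Of the 8 genes of regulation and transport, 4 were called higher and 1 lower in RAS (31.9% and 32.0% of all genes), 3 and 2 in DOT1L OE (29.9% and 30.0%) and 3 and 2 in RAS/shDOT1L (27.9% and 27.5%), each against control. RAS/shDOT1L against RAS had 3 and 4 (26.3% and 26.4%). Their median log2 fold changes in that order were 0.36, -0.087, 0.27 and -0.21. With the GC offset the counts were 3 and 3, 3 and 3, 3 and 1, and 3 and 3, with medians of 0.22, -0.073, 0.21 and 0.00088. In the same order, that fit called 25.3% and 28.8%, 30.7% and 28.8%, 27.9% and 26.9%, and 26.5% and 20.4% of all genes. SREBF2, the factor of the cholesterol branch, read 160.3, 166 and 155 CPM in the control and 169, 164 and 159.8 in RAS. In RAS/shDOT1L SREBF2 was at 213, 221 and 236 CPM, and the DOT1L OE libraries held 94.1, 100.2 and 88.02. Control and RAS overlapped, RAS/shDOT1L stood above all other libraries and DOT1L OE below them. It rose in RAS/shDOT1L against RAS (0.46 ± 0.056, adjusted p = 3.29e-09, and 0.80 with the GC offset) and fell in DOT1L OE (-0.77 ± 0.057, adjusted p = 2.93e-15). Between RAS and control SREBF2 did not pass the test (0.034 ± 0.051, adjusted p = 0.575), and it was called lower when libraries were scaled to their totals alone (log2 fold change -0.16, adjusted p = 0.00537) or with the GC offset (-0.44, adjusted p = 3.93e-09). SREBF1, the factor of the fatty acid branch, had the opposite order between RAS and RAS/shDOT1L, with 88.2, 92.2 and 84.4 CPM in the control and 120.4, 121 and 122 in RAS. In RAS/shDOT1L SREBF1 was at 63.6, 61.3 and 67.4 CPM, and the DOT1L OE libraries held 86.01, 82.6 and 85.4. It was lower in RAS/shDOT1L than in RAS (-0.90 ± 0.071, adjusted p = 3.38e-14, and -0.41 with the GC offset) and than in the control (-0.46 ± 0.073, adjusted p = 3.04e-06). Its higher level in RAS than in the control (0.46 ± 0.061, adjusted p = 2.69e-08) turned to -0.17 with the GC offset (adjusted p = 0.0141), and in DOT1L OE it was called lower in that fit (-0.16, adjusted p = 0.0225) and not without the offset (-0.056 ± 0.062, adjusted p = 0.455). SREBF1 shares 556 exon bases with RAI1 on the opposite strand.

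SCAP, the escort of the SREBPs, stood at 84.3 ± 1.61, 138 ± 5.53, 88.8 ± 8.54 and 109 ± 1.06 CPM in the control, RAS, RAS/shDOT1L and DOT1L OE. It rose in DOT1L OE (0.38 ± 0.058, adjusted p = 4.01e-07), and its calls in RAS against control (0.71 ± 0.060, adjusted p = 4.13e-13) and RAS/shDOT1L against RAS (-0.61 ± 0.070, adjusted p = 7.46e-10) were lost with the GC offset (log2 fold changes 0.11 and -0.16, adjusted p = 0.137 and 0.054). INSIG1, which retains SCAP and is itself an SREBP target in many cells, read 13.1, 12.7 and 11.1 CPM in the control and 27.5, 28.1 and 27.6 in RAS. In RAS/shDOT1L INSIG1 was at 45.2, 40.2 and 43.1 CPM, and the DOT1L OE libraries held 35.5, 34.6 and 35.5. The groups were all apart, and the control was the lowest. INSIG1 rose 2.25-fold in RAS (1.17 ± 0.13, adjusted p = 1.02e-09), 2.87-fold in DOT1L OE (1.52 ± 0.11, adjusted p = 1.62e-15) and 3.49-fold in RAS/shDOT1L (1.80 ± 0.12, adjusted p = 4.65e-14), each against the control. INSIG2, its paralog, had 15.7, 11.8 and 13.3 CPM in the control and 10.2, 19.1 and 15.6 in RAS. In RAS/shDOT1L INSIG2 was at 8.29, 8.72 and 9.47 CPM, and the DOT1L OE libraries held 11.2, 10.1 and 11.7. It was lower in RAS/shDOT1L than in RAS (-0.74 ± 0.20, adjusted p = 0.00208), a call lost without RAS replicate 2 (log2 fold change -0.54, adjusted p = 0.0545), and in RAS against control it passed the test only in the fits with the GC offset (0.70, adjusted p = 0.00139, without the replicate block). Its lower level in RAS/shDOT1L than in the control (-0.62 ± 0.18, adjusted p = 0.00469) lost the call with the offset (-0.37, adjusted p = 0.0802).

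STARD4, a soluble carrier that moves cholesterol between membranes, had the largest falls of the 34 genes in RAS and in DOT1L OE, each against the control. It read 39.4, 33.5 and 36.2 CPM in the control and 8.17, 6.55 and 7.03 in RAS. In RAS/shDOT1L STARD4 was at 36.02, 30.8 and 30.1 CPM, and the DOT1L OE libraries held 6.51, 7.48 and 8.71. RAS and DOT1L OE lay together at the bottom, and RAS/shDOT1L overlapped the control. STARD4 fell 5.02-fold in RAS (-2.33 ± 0.14, adjusted p = 2.59e-17) and 4.78-fold in DOT1L OE (-2.26 ± 0.12, adjusted p = 2.54e-19), rose 4.50-fold from RAS to RAS/shDOT1L (2.17 ± 0.16, adjusted p = 3.21e-15) and did not pass the test between RAS/shDOT1L and control (-0.17 ± 0.11, adjusted p = 0.191). ABCA1, the exporter of cholesterol to lipoproteins and a classical LXR target, moved the other way in RAS, with 41.4, 38.3 and 45.3 CPM in the control and 95.3, 91.5 and 93.2 in RAS. In RAS/shDOT1L ABCA1 was at 50.4, 55.8 and 63.95 CPM, and the DOT1L OE libraries held 38.7, 37.9 and 38.4. RAS stood above all other libraries (1.16 ± 0.076, adjusted p = 3.18e-16 against control), RAS/shDOT1L lay between RAS and the control (-0.70 ± 0.083, adjusted p = 1.7e-09 against RAS), and DOT1L OE did not pass the test (-0.12 ± 0.086, adjusted p = 0.241). MYLIP, another LXR target and the ubiquitin ligase that removes lipoprotein receptors, read 6.20, 7.33 and 7.80 CPM in the control and 9.30, 5.88 and 10.6 in RAS. In RAS/shDOT1L MYLIP was at 11.5, 12.4 and 5.37 CPM, and the DOT1L OE libraries held 11.7, 12.8 and 11.7. It rose in DOT1L OE (0.76 ± 0.16, adjusted p = 8.17e-05), and the spread of its RAS and RAS/shDOT1L libraries left no other call, although it was called higher in RAS/shDOT1L than in the control without RAS/shDOT1L replicate 3 (log2 fold change 0.75, adjusted p = 0.00354).

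**Figure D4:**
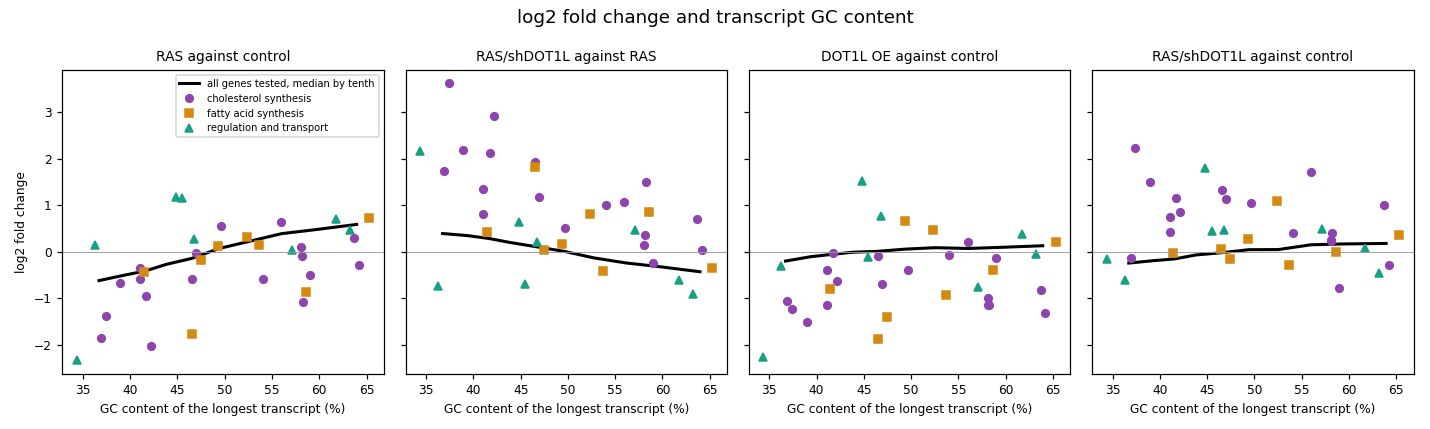
log2 fold change (y axis) against the GC content of the longest GENCODE transcript (x axis, %) for the 34 genes in the 4 comparisons, with a point for each gene and a black line for the median of all genes tested in 10 bins of GC. In RAS/shDOT1L against RAS the line falls from 0.39 to -0.43 and 15 of the 18 cholesterol points are called above 0; in RAS against control the line rises from -0.62 to 0.58.

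Neighboring pathways were read from lists of other genes, with up to 3 genes called at the smallest p named per comparison and no share of the lists called particular to them. Of all genes, 31.9% were called higher and 32.0% lower in RAS, and 26.3% and 26.4% in RAS/shDOT1L against RAS. DOT1L OE had 29.9% and 30.0%, and RAS/shDOT1L against control 27.9% and 27.5%. With the GC offset these shares were, in that order, 25.3% and 28.8%, 26.5% and 20.4%, 30.7% and 28.8%, and 27.9% and 26.9%. In the isoprenoid side branches, which draw on farnesyl diphosphate for prenylation, dolichol and ubiquinone, 13 of 14 genes were tested: 3 rose and 5 fell in RAS, 4 and 3 in RAS/shDOT1L against RAS, 5 and 3 in DOT1L OE, and 1 and 6 in RAS/shDOT1L against control. Its median log2 fold changes were -0.21, -0.037, 0.21 and -0.18. With the GC offset the counts were 2 and 2, 0 and 5, 7 and 3, and 2 and 5, with medians of -0.015, 0.011, 0.20 and -0.15. In RAS/shDOT1L against RAS, NUS1, a subunit of the dolichol synthase, had the smallest p and fell from 40.8 ± 2.25 to 12.3 ± 2.36 CPM (-1.71 ± 0.14, adjusted p = 8.88e-14). In the same comparison DOLK, dolichol kinase, fell (-0.79 ± 0.11, adjusted p = 3.52e-08, and -0.46 with the GC offset), and in DOT1L OE ICMT, the methylase of prenylated proteins, rose (0.35 ± 0.049, adjusted p = 1e-07).

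The list of SREBP cleavage, transport and sterol-regulated degradation held 18 genes, all tested. Its counts were 5 higher and 12 lower in RAS, 8 and 6 in RAS/shDOT1L against RAS, 5 and 8 in DOT1L OE, and 4 and 9 in RAS/shDOT1L against control, with medians of -0.40, 0.072, -0.047 and -0.13. With the GC offset the counts were 3 and 7, 6 and 6, 7 and 8, and 5 and 5, and the medians were -0.031, 0.011, -0.017 and -0.089. TMEM97, a sterol-responsive membrane protein, rose from 5.24 ± 0.237 CPM in RAS to 17.6 ± 3.30 in RAS/shDOT1L (1.77 ± 0.20, adjusted p = 7.6e-10), and PGRMC1, a heme-binding partner of sterol enzymes, fell in RAS (-1.01 ± 0.072, adjusted p = 4.15e-15) and was higher in RAS/shDOT1L than in RAS (1.19 ± 0.077, adjusted p = 7.17e-17). SYVN1, on the same list, was lower in RAS/shDOT1L than in RAS (-1.08 ± 0.11, adjusted p = 1.25e-10). The COPII coat subunit SEC24D fell in RAS (-0.72 ± 0.050, adjusted p = 1.11e-15) and in DOT1L OE (-0.67 ± 0.051, adjusted p = 5.17e-15), and ERLIN2, a factor of sterol-regulated degradation, was lower in RAS/shDOT1L than in the control (-1.53 ± 0.081, adjusted p = 1.31e-16). ERLIN2 was also lower than the control in RAS (-0.91 ± 0.072, adjusted p = 7.21e-14, and -0.60 with the GC offset). Its means were 98.4 ± 1.44 CPM in the control and 62.6 ± 3.43 in DOT1L OE. Smaller p-values than that of SEC24D in DOT1L OE were those of SEC24A, which fell (-1.28 ± 0.078, adjusted p = 8.82e-18), and FAF2, which rose (0.82 ± 0.060, adjusted p = 2.99e-15).

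Of 22 genes of sterol uptake, esterification and movement, all tested, 6 rose and 8 fell in RAS, 7 and 6 in RAS/shDOT1L against RAS, 7 and 9 in DOT1L OE, and 7 and 5 in RAS/shDOT1L against control, with medians of -0.072, 0.19, -0.11 and 0.12. The GC offset gave 8 and 9, 11 and 7, 7 and 9, and 8 and 4, with medians of -0.11, 0.26, -0.17 and 0.12. CAV1, the coat protein of cholesterol-rich caveolae, read 727, 711 and 728 CPM in the control, 213, 237 and 221 in RAS and 865, 869 and 879 in RAS/shDOT1L. It was low in RAS (-1.69 ± 0.040, adjusted p = 2.45e-30) and 3.95-fold higher in RAS/shDOT1L than in RAS (1.98 ± 0.046, adjusted p = 5.2e-32), and its partner CAV2 fell in RAS (-1.32 ± 0.044, adjusted p = 2.54e-25, and -0.76 with the GC offset) and in DOT1L OE (-1.46 ± 0.051, adjusted p = 1.17e-25). SOAT1, the enzyme that esterifies cholesterol for storage, rose 6.64-fold in DOT1L OE (2.73 ± 0.093, adjusted p = 4.69e-26), from 12.6 ± 1.91 to 83.1 ± 1.32 CPM. NPC2, which hands lysosomal cholesterol on for export, fell in DOT1L OE (-1.55 ± 0.056, adjusted p = 3.32e-25), and LIPA, the lysosomal lipase of cholesteryl esters, rose from RAS to RAS/shDOT1L (1.49 ± 0.097, adjusted p = 7.03e-17).

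The oxysterol and LXR list had 11 of 13 genes tested, with 6 higher and 3 lower in RAS, 1 and 7 in RAS/shDOT1L against RAS, 5 and 2 in DOT1L OE, and 2 and 5 in RAS/shDOT1L against control, with medians of 0.36, -0.59, 0.25 and -0.23. In the fit with the GC offset the balance in RAS turned, to 4 higher and 5 lower, and the other counts were 2 and 6, 6 and 2, and 1 and 6, with medians of -0.099, -0.28, 0.17 and -0.41. ABCG1, the sterol exporter that partners ABCA1, stood at 4.87 ± 0.574 CPM in the control and 27.4 ± 1.44 in RAS. In RAS/shDOT1L ABCG1 was at 11.2 ± 2.93 CPM, and the DOT1L OE libraries held 12.2 ± 1.43. It rose 5.63-fold in RAS (2.49 ± 0.16, adjusted p = 1.76e-16), was lower in RAS/shDOT1L than in RAS (-1.27 ± 0.16, adjusted p = 1.35e-08) and rose in DOT1L OE (1.33 ± 0.18, adjusted p = 1.58e-08). CYP27A1, a sterol hydroxylase that makes an oxysterol, rose in DOT1L OE (1.39 ± 0.11, adjusted p = 5.02e-14). LPCAT3, on the same list, went the other way and fell in DOT1L OE (-0.74 ± 0.076, adjusted p = 4.01e-11). It was also lower than the control in RAS (-0.66 ± 0.078, adjusted p = 2.45e-09, and -0.94 with the GC offset). The same held for LPCAT3 in RAS/shDOT1L against control (-0.55 ± 0.081, adjusted p = 7.48e-07). NR1H2, an LXR gene, was higher in RAS than in the control (0.74 ± 0.055, adjusted p = 1.52e-14) and lower in RAS/shDOT1L than in RAS (-0.96 ± 0.062, adjusted p = 5.53e-17), and with the GC offset these log2 fold changes shrank to 0.16 and -0.53.

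In the list of fatty acid activation, elongation and glycerolipid assembly, 30 of 33 genes were tested, and 13 rose and 13 fell in RAS, 11 and 6 in RAS/shDOT1L against RAS, 7 and 13 in DOT1L OE, and 12 and 6 in RAS/shDOT1L against control, with medians of -0.10, 0.17, -0.16 and 0.13. The GC offset gave 11 and 12, 15 and 4, 7 and 13, and 14 and 5, with medians of -0.16, 0.32, -0.10 and 0.19. ACSL3, which activates fatty acids at lipid droplets, rose from RAS to RAS/shDOT1L (1.18 ± 0.087, adjusted p = 4.18e-15), as did ME1, the malic enzyme that supplies NADPH (1.09 ± 0.10, adjusted p = 3.78e-12). DGAT2, which completes triglycerides, was higher in RAS/shDOT1L (10.1 ± 1.04 CPM) than in the control (1.72 ± 0.401 CPM), with a log2 fold change of 2.56 ± 0.27, adjusted p = 1.52e-09. In DOT1L OE the desaturase-related genes FADS3 (-1.34 ± 0.062, adjusted p = 1.1e-21) and SCD5 (-1.20 ± 0.088, adjusted p = 2.53e-15) and the citrate carrier SLC25A1 (-0.80 ± 0.051, adjusted p = 3.62e-17) all fell. Of the desaturases described above, SCD and FADS2 also fell there, whereas FADS1 rose. MID1IP1, a partner of acetyl-CoA carboxylase, rose in RAS (1.66 ± 0.072, adjusted p = 8.33e-22) and was lower in RAS/shDOT1L than in RAS (-0.92 ± 0.075, adjusted p = 7.58e-14).

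Fatty acid oxidation had 21 of 22 genes tested, with 8 higher and 9 lower in RAS, 9 and 4 in RAS/shDOT1L against RAS, 5 and 11 in DOT1L OE, and 8 and 4 in RAS/shDOT1L against control, with medians of 0.089, 0.20, -0.25 and 0.073. In the fit with the GC offset the balance in RAS turned, to 10 higher and 6 lower, and the other counts were 12 and 5, 5 and 13, and 8 and 4, with medians of 0.099, 0.28, -0.25 and 0.13. CPT1A, the gate of fatty acid entry into mitochondria, read 18.3, 13.2 and 13.4 CPM in the control and 42.3, 33.6 and 41.8 in RAS. In RAS/shDOT1L CPT1A was at 8.48, 9.48 and 10.5 CPM, and the DOT1L OE libraries held 38.3, 41.2 and 37.1. It was high in RAS (1.39 ± 0.13, adjusted p = 8.14e-12) and in DOT1L OE (1.38 ± 0.11, adjusted p = 8.25e-14), and RAS/shDOT1L lay 4.07-fold below RAS (-2.03 ± 0.15, adjusted p = 1.96e-15). ACADVL, the first dehydrogenase of long chains, rose in RAS (0.88 ± 0.050, adjusted p = 4.38e-18) and was lower in RAS/shDOT1L than in RAS (-0.86 ± 0.054, adjusted p = 3.03e-17), and with the GC offset these log2 fold changes were 0.38 and -0.51. CPT2, the inner-membrane partner of CPT1A, rose in RAS/shDOT1L against control (1.49 ± 0.18, adjusted p = 1.17e-08), and ETFDH, which passes electrons on from the dehydrogenases, fell in DOT1L OE (-1.48 ± 0.13, adjusted p = 7.2e-13).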

How the data were processed

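RNA-seq libraries of IMR90 fibroblasts were analysed from the read counts that the authors deposited, 1 table of whole-number counts per Ensembl gene ID for each of 12 libraries. Per the labels and methods, poly(A) RNA was sequenced in paired ends and aligned with STAR (2.6.1 in the submitters' processing notes) to GRCh38. The annotation release and strand setting are not given in the sources used here. Of 48162 IDs, 45038 matched the name table. The 6 libraries of each comparison were fitted in R 4.3.3 with edgeR 4.0.16 (filterByExpr, TMM, two-sided quasi-likelihood F test), with Benjamini-Hochberg adjustment over all genes tested and calls at an adjusted p under 0.05. CPM levels used TMM over all 12 libraries, SE is that of the fitted log2 fold change, and ± on a CPM value is the SD. The GC offset took the trend over 20 bins of GC content of the longest GENCODE 44 transcript. DESeq2 1.42.0 and limma 3.58.1 were alternatives, and the scripts were tested on simulated data. All 34 members are accounted for. Of each other list, up to 3 called genes with the smallest p were named per comparison. Members and lists were chosen with earlier results of these data known. The replicate numbers did not pair the libraries (correlations of deviations from -0.019 to 0.027).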

Additional observations from a re-analysis of the deposited data

How the results depend on the processing

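Of 136 results for single genes (34 genes in 4 comparisons), 100 were called, and 78 of these were called in the same direction under each of 16 alternatives. The direction of 3 called results turned, all with the GC offset (each value is given without and then with the replicate block). They were MVD (-0.35 and -0.35) and SREBF1 (-0.17 and -0.17) in RAS against control and FASN (0.18 and 0.18) in RAS/shDOT1L against RAS. The cause was not tested. Among results not called, the same offsets turned the sign of FDFT1 (0.036 and 0.037), LSS (-0.37 and -0.38), ACSS2 (-0.19 and -0.19), FADS1 (-0.00085 and -0.00084) and SREBF2 (-0.44 and -0.44) in RAS against control, where CYP51A1 came to 0.0042 without the block. They also turned PMVK (0.095 and 0.091) in RAS/shDOT1L against RAS, and SC5D (0.099 and 0.099), ELOVL6 (0.12 and 0.12), SCAP (-0.11 and -0.11) and STARD4 (0.089 and 0.085) in RAS/shDOT1L against control. HSD17B7 (0.051 and 0.11) turned in DOT1L OE against control, also with the replicate block alone (0.036), with limma-voom (0.036) and under library size only (0.052). Library size as the only scaling turned LSS (-0.090), ACSS2 (-0.063), FADS1 (-0.077), INSIG2 (-0.059) and SREBF2 (-0.16) in RAS against control, EBP (0.011) and SREBF1 (0.024) in DOT1L OE against control, and SCD (-0.066) and SCAP (-0.036) in RAS/shDOT1L against control.

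Leaving out 1 library turned the sign of results that were not called, with these ranges of the log2 fold change. The ranges in RAS against control were FDFT1 (-0.073 to 0.0033) and INSIG2 (-0.074 to 0.36). The ranges in RAS/shDOT1L against RAS were TM7SF2 (-0.14 to 0.11), LPIN1 (-0.034 to 0.17) and MYLIP (-0.020 to 0.49). The ranges in DOT1L OE against control were FDPS (-0.050 to 0.35), SQLE (-0.21 to 0.00093), HSD17B7 (-0.36 to 0.27) and EBP (-0.14 to 0.00052). The ranges in RAS/shDOT1L against control were FADS2 (-0.049 to 0.012) and SCAP (-0.00033 to 0.13).

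The cholesterol enzymes called higher in RAS against control went from 2 to 1 under library size only, with the GC offset and with the GC offset and replicate block, and ranged from 1 to 3 when 1 library was left out. The fatty acid genes called higher there went from 2 to 0 with both GC offsets, as did those called lower in RAS/shDOT1L against RAS. In RAS/shDOT1L against control, the cholesterol enzymes called lower went from 1 to 3 under library size only and to 2 with both GC offsets (1 to 2 with a library left out), and the fatty acid genes called lower from 1 to 3, 2 and 2 (0 to 1). The block on replicate number alone left the other counts of called enzymes within 1.5 times; the libraries share only a number. Of the members, CYP51A1, FDPS and HSD17B7 rested on the fewest counts, with means of 37.2, 64.2 and 114 a library.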
